A study of Homo sapiens with 14 samples.

Results

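MYOF, which encodes the ferlin myoferlin, and 9 annexin genes (ANXA1, ANXA2, ANXA3, ANXA4, ANXA5, ANXA6, ANXA7, ANXA11 and ANXA13) were followed across liver cancer cells under osmotic or mechanical compression. They are 10 of the 56479 genes of the count table and were taken from it by gene symbol. The genes had been chosen on their family and with earlier results of the same libraries in view, so their levels, fold changes and calls in every comparison are given as a description, without p-values of their own. All 10 passed the filter on low counts.

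The libraries came from HepG2, an established hepatoblastoma line, and Hep3B, an established hepatocellular carcinoma line, both labelled wild type (WT). HepG2 cells on culture dishes were held for 5 days in medium with 4% PEG (polyethylene glycol, a solute that draws water out of cells) or in isotonic medium. On transwells, which are porous culture inserts, HepG2 cells were placed under a weight or left uncompressed, and Hep3B cells were placed under a weight, given 3% PEG or left uncompressed. Each of these 7 groups had 2 libraries, called biological replicates in the labels. How heavy the weight was and how long cells stayed on transwells is not stated in the sources used here. Each line is a single tumour-derived line, and the culture surface differs between the 4% PEG comparison and the others.

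Annexins bind negatively charged phospholipids when calcium rises and assemble on the inner face of a wounded plasma membrane. Ferlins are membrane-anchored proteins with C2 domains that take part in calcium-triggered vesicle fusion, and myoferlin, first described in muscle cells, is known for roles in membrane resealing and in the trafficking of growth factor receptors. In liver, ANXA5 and ANXA6 are abundant, whereas ANXA1, ANXA2 and ANXA3 are better known from dedifferentiated or tumour-derived liver cells. Resealing also draws on S100 proteins that bind annexins, on calpain proteases, on the ESCRT machinery that sheds damaged membrane, on caveolae and on lysosome exocytosis.

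MYOF (ENSG00000138119) lies on the minus strand of chromosome 10, from 93306429 to 93482317. ANXA1 (ENSG00000135046) lies on the plus strand of chromosome 9, from 73151757 to 73170393, and ANXA3 (ENSG00000138772) on the plus strand of chromosome 4, from 78551519 to 78610451 (GRCh38). These 3 genes were low in uncompressed HepG2 and had the largest rises there, so the 250 bases before their RefSeq start are printed to let a reader set their promoters side by side. The windows, on GRCh38.p14, are chr10:93482335-93482584 (minus strand) for MYOF, chr9:73151615-73151864 (plus strand) for ANXA1 and chr4:78551520-78551769 (plus strand) for ANXA3. Capitals mark a match to any of 5 motifs searched on both strands, with matches allowed to overlap.
MYOF: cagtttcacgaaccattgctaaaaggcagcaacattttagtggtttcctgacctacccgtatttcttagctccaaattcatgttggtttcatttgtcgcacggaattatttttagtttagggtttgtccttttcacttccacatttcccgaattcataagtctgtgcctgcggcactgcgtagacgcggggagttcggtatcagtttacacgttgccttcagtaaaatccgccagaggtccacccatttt
ANXA1: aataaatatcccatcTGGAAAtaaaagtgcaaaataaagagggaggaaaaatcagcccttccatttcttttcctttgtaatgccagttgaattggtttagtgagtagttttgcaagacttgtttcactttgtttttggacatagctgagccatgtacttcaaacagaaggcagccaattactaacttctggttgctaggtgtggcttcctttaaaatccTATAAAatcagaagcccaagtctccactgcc
ANXA3: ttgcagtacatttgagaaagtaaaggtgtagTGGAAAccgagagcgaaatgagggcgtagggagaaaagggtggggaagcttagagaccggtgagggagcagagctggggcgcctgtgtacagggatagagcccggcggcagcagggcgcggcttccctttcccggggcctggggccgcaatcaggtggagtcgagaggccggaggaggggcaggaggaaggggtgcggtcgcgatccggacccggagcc

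The motifs were an AP-1 site (TGANTCA), a TEAD site (GGAATG), the NFAT core (TGGAAA), a GC box (GGGCGG) and a TATA box (TATAAA). Their shares among all 35116 RefSeq windows of the same length were 6.57%, 11.9%, 18.0%, 42.6% and 10.7%, in that order. The MYOF window held none of these letter strings and had 44.4% G and C. The ANXA1 window, with 38.4% G and C, held an NFAT core whose first base lies at -235 and a TATA box at -31, counted back from the start. The ANXA3 window was richer in G and C (64.0%) and held an NFAT core at -219. RefSeq windows were matched for 9 of the 10 genes, 13 windows in all because some genes have several starts. Of these, 4 held an NFAT core, 7 a GC box, 3 a TATA box and 1, that of ANXA2, an AP-1 site at -127. None held the TEAD string. No motif of the 5 was present in all 3 printed windows.

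Library totals were 21.2 M to 35.4 M counts. Levels are CPM, counts relative to the library size after TMM scaling, which trims extreme genes before libraries are matched. A gene is called changed where its adjusted p was under 0.05 over the 19232 genes tested, by the quasi-likelihood test of edgeR, adjusted by Benjamini-Hochberg. Values with ± and no unit are log2 fold changes with their standard error. The spread behind them is shared by all 14 libraries, and replicates on dishes differed more (biological coefficient of variation 0.29 in 4% PEG and 0.32 in isotonic medium) than those on transwells (0.0459 to 0.0705). The 6 liver markers were present in every library, and their summed level was 15360 and 16790 CPM in 4% PEG against 107600 and 112300 CPM in isotonic medium, 79470 and 83370 CPM under the weight against 87590 and 87710 CPM uncompressed in HepG2. In Hep3B it was 38750 and 40590 CPM under the weight and 21650 and 22520 CPM in 3% PEG, against 36560 and 36660 CPM uncompressed. PTPRC, which marks leukocytes, had no count in any HepG2 library and at most 3 counts per Hep3B group; in HepG2 the summed immune signal was almost wholly LYZ, at 523 CPM in 4% PEG and 4203 CPM in isotonic medium. Fibroblast markers summed to 2.19 to 27.1 CPM and endothelial markers to 0.494 to 14.9 CPM. Of the 5 fibroblast markers, 0 to 3 had no count in a given library, and so had 0 to 3 of the 4 endothelial markers. What part, if any, the loss of liver transcripts has in the values below was not tested. In bulk RNA, fewer expressing cells and less RNA per cell cannot be told apart.

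In HepG2 held in 4% PEG, MYOF and most annexins were higher than in isotonic medium. The fit called 7 of the 10 genes higher, where 23.9% of all genes tested were called higher, and 1 lower, where 23% of all genes were called lower. The 10 genes had a median log2 fold change of 0.91, against 0.01 over all genes. Under the weight, HepG2 had 4 of 10 called higher (5.4% of all genes) and 1 called lower (4.18% of all genes). The median was 0.13 against 0.00, and RLE size factors gave 4 higher and 0 lower. With the dish libraries fitted alone, 4% PEG lost ANXA1, which was not tested there, and ANXA2 (22.0% of all genes called). With the HepG2 transwell libraries fitted alone, the weight gained ANXA6 and ANXA11 (44.5% of all genes called). In those fits 4% PEG no longer had more members called than the weight. Hep3B under the weight had 1 of 10 called higher (0.879% of all genes) and 0 called lower (0.172% of all genes), with a median of -0.10 against -0.01. At an unadjusted p of 0.05 in edgeR, 2 were higher and 2 lower there, a threshold without a share of all genes beside it. DESeq2 called 2 lower, ANXA4 and ANXA11, and 2.78% of all genes in either direction. In Hep3B given 3% PEG, 2 of 10 were called higher (11% of all genes) and 3 lower (11.5% of all genes), with a median of -0.22 against -0.01. Scaling by total counts alone moved the median of all genes in 4% PEG to 0.37 and its calls to 6918 higher of 9815, against 4590 higher and 4421 lower with TMM. In 3% PEG it gave 2708 higher of 4569 genes, against 2111 higher and 2212 lower with TMM. Both Hep3B comparisons share the uncompressed libraries and are not independent of each other.

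**Figure D1:**
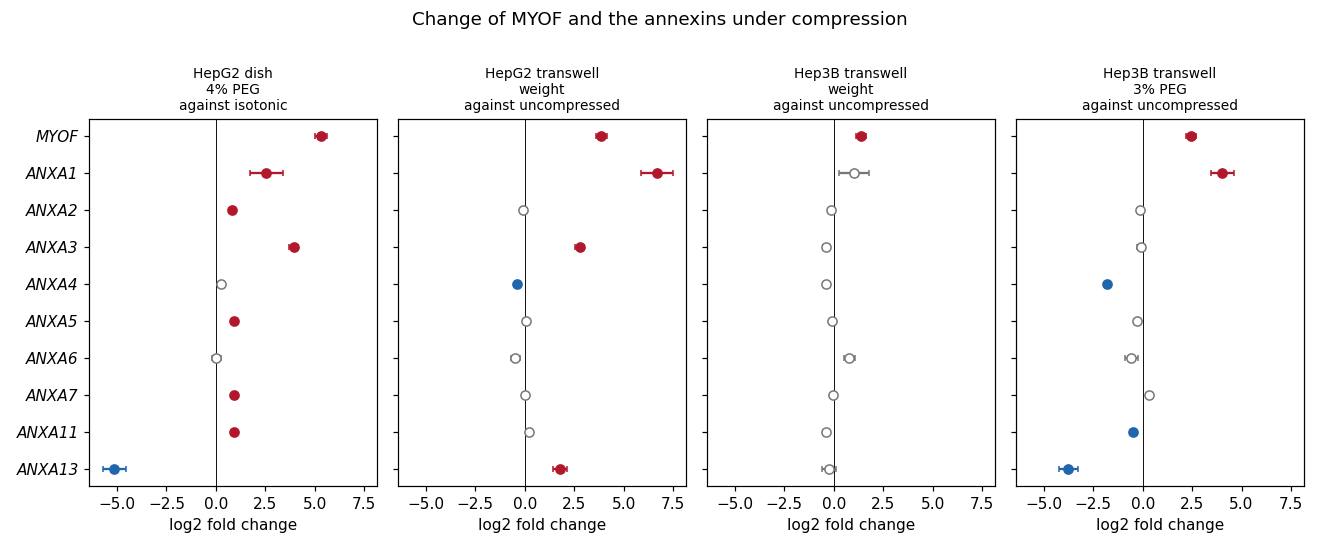
Log2 fold change (x axis, point) with its standard error (bar) of MYOF and 9 annexins in the 4 comparisons; filled red points were called higher, filled blue points called lower and open points not called. MYOF is the gene called higher in every panel (5.32, 3.87, 1.38 and 2.43), and fitted values for ANXA1 in both HepG2 panels and ANXA13 in 4% PEG rest on groups of 1 to 3 counts and depend on the prior count.

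MYOF was the gene called higher in all 4 comparisons. It stood at 39.1 and 26.8 CPM in 4% PEG, against 0.884 and 0.751 CPM in isotonic medium. Under the weight it stood at 14.6 and 15.8 CPM in HepG2, against 1.25 and 0.827 CPM uncompressed. The compressed libraries lay far above their controls in both settings, with log2 fold changes of 5.32 ± 0.29 for 4% PEG and 3.87 ± 0.28 for the weight. In Hep3B, MYOF read 7.00 and 9.08 CPM under the weight and 15.3 and 17.9 CPM in 3% PEG, against 3.28 and 2.88 CPM uncompressed. The 3 Hep3B groups did not overlap, and 3% PEG held the highest values. The log2 fold changes were 1.38 ± 0.24 under the weight and 2.43 ± 0.24 in 3% PEG. The call under the weight in Hep3B was lost when either uncompressed library or weight replicate 2 was left out, with log2 fold changes of 1.17 to 1.47 in those fits.

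Ranked by group mean, MYOF was highest in HepG2 in 4% PEG (32.9 CPM), followed by Hep3B in 3% PEG (16.6 CPM) and HepG2 under the weight (15.2 CPM), 2 groups whose libraries overlapped. Hep3B under the weight came next at 8.04 CPM, then uncompressed Hep3B at 3.08 CPM. Uncompressed HepG2 on transwells (1.04 CPM) and isotonic HepG2 on dishes (0.817 CPM) closed the order and overlapped. Both compressed HepG2 groups and both compressed Hep3B groups thus stood above every uncompressed group, across a 40.3-fold span of means.

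**Figure D2:**
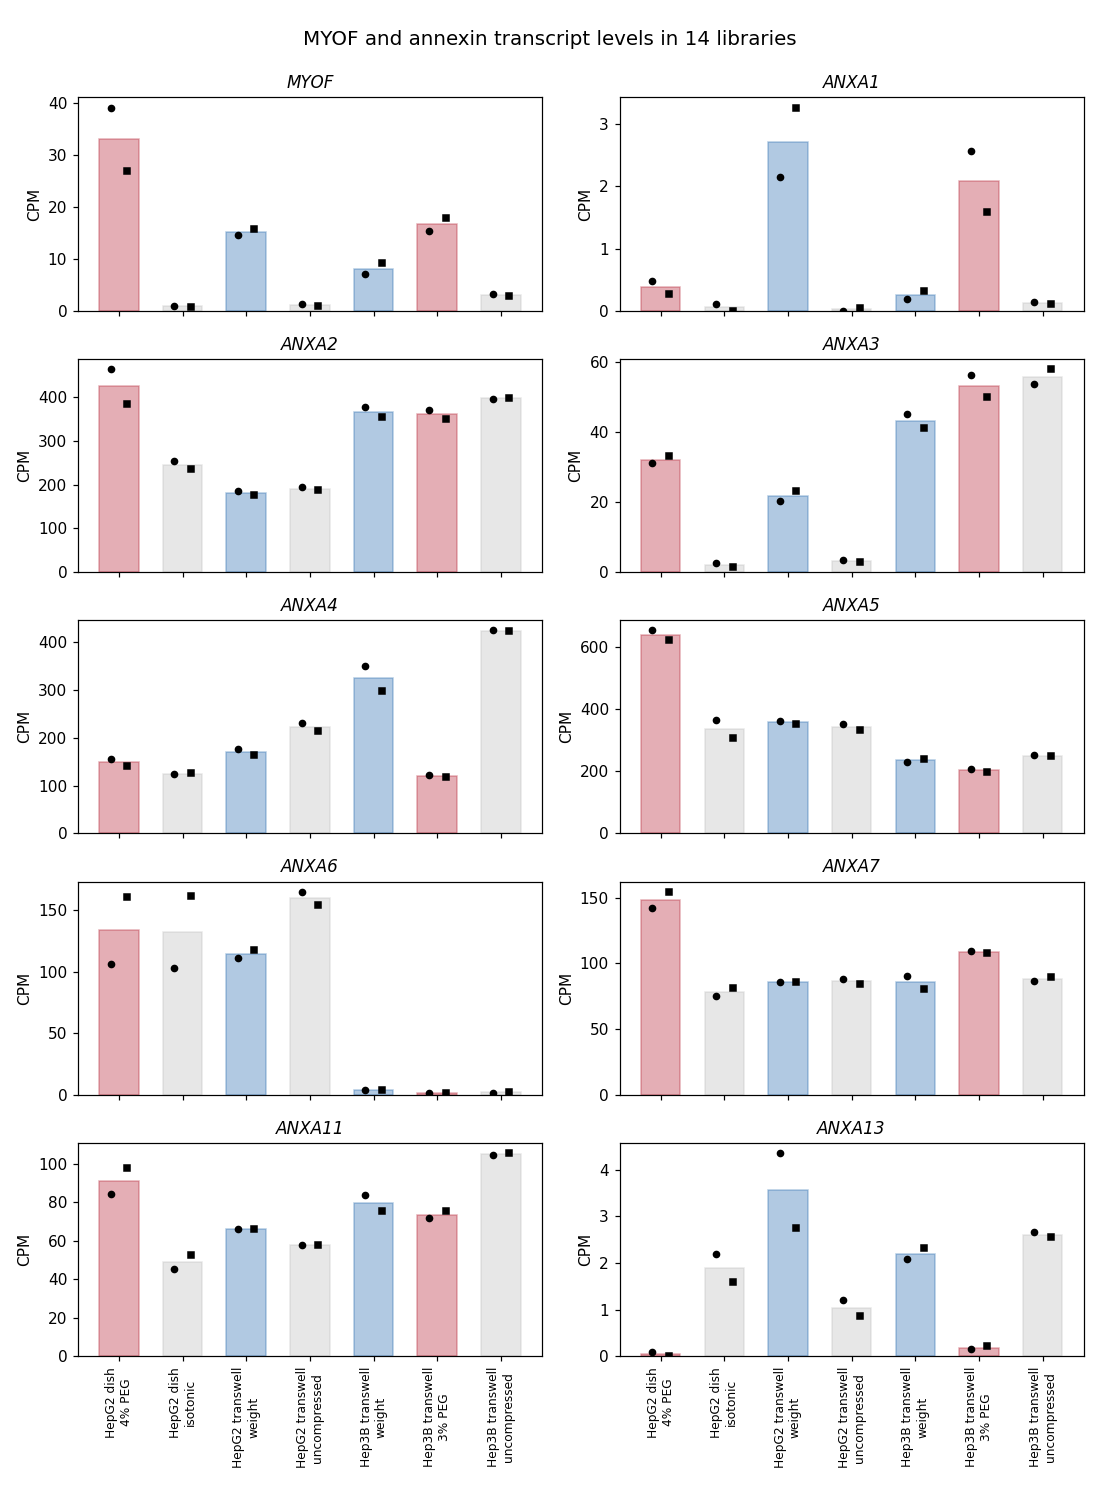
Level in CPM (y axis, linear from 0, scaled per gene) of each gene in the 7 groups; bars are group means, circles are replicate 1 and squares replicate 2, with PEG groups in red, weight groups in blue and uncompressed groups in grey. MYOF and ANXA3 stand above near-silent controls in HepG2, ANXA6 is near 0 in every Hep3B library, and ANXA13 is near 0 in both PEG groups.

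ANXA1, a calcium-dependent phospholipid binder known for its anti-inflammatory signalling and its role in wound resealing, was close to silent without compression. Its 2 libraries of HepG2 under the weight read 2.16 and 3.27 CPM, against 0 and 0.0414 CPM uncompressed. That is 122 counts against 1, a ratio of 125 with an exact 95% interval of 22 to 4970 that covers counting error only. In Hep3B, ANXA1 read 2.58 and 1.59 CPM in 3% PEG and 0.192 and 0.319 CPM under the weight, against 0.140 and 0.105 CPM uncompressed. The 3% PEG libraries stood well apart (4.03 ± 0.58, called higher), whereas the weight gave 1.03 ± 0.76 and was not called. In HepG2 in 4% PEG it read 0.476 and 0.272 CPM, against 0.106 and 0 CPM in isotonic medium. These are 23 counts against 3, a ratio of 6.24 (exact 95% interval 1.89 to 32.5); the gene was called, and the call was lost without isotonic replicate 2 or without 4% PEG replicate 1. With the dish libraries fitted alone, ANXA1 did not pass the low-count filter and was not tested. Even at its highest, ANXA1 held 0.27% of the summed level per exon length of the 10 genes.

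ANXA3, which binds phospholipids and is often high in hepatocellular carcinoma, rose in both HepG2 comparisons. It read 31.2 and 33.2 CPM in 4% PEG, against 2.72 and 1.41 CPM in isotonic medium. On transwells it read 20.2 and 23.2 CPM under the weight, against 3.44 and 2.94 CPM uncompressed. Neither pair of groups overlapped, and the log2 fold changes were 3.93 ± 0.24 in 4% PEG and 2.77 ± 0.23 under the weight. In Hep3B it was not called in either comparison. There it read 45.3 and 41.1 CPM under the weight and 56.3 and 50.2 CPM in 3% PEG, against 53.8 and 58.1 CPM uncompressed. All 6 Hep3B libraries therefore lay above all 8 HepG2 libraries. The weight gave -0.37 ± 0.20 and 3% PEG gave -0.07 ± 0.20. Both weight libraries in Hep3B lay below both uncompressed ones, and ANXA3 was called there with the Hep3B libraries fitted alone.

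A further 4 annexins, all abundant, rose in 4% PEG by similar amounts. ANXA2, the annexin that forms a complex with S100A10, read 465 and 386 CPM in 4% PEG, against 254 and 236 CPM in isotonic medium. ANXA5, which lays a lattice on exposed phosphatidylserine, read 655 and 623 CPM in 4% PEG, against 365 and 308 CPM. None of these groups overlapped, and the log2 fold changes were 0.80 ± 0.11 for ANXA2 and 0.93 ± 0.10 for ANXA5. ANXA7, a vesicle-fusing annexin also called synexin, read 142 and 155 CPM in 4% PEG, against 75.1 and 81.3 CPM in isotonic medium. ANXA11, known to bind the calcium sensor PDCD6 and to tether RNA granules to lysosomes, read 84.4 and 97.7 CPM in 4% PEG, against 45.1 and 52.3 CPM. Both were called higher, at 0.92 ± 0.10 for ANXA7 and 0.90 ± 0.12 for ANXA11. With the dish libraries fitted alone, ANXA2 was no longer called. Reads could be shared between ANXA2 and its processed pseudogenes, which held 1.5% to 3.13% of the summed counts per group, and summing them with ANXA2 gave the same 0.80. ANXA7 shares 105 exon bases with AL512656.1 on the opposite strand, and the sources used here do not say whether counting used strand.

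Under the weight in HepG2, none of these 4 genes was called, though ANXA11 was with the HepG2 transwell libraries fitted alone. The log2 fold changes were -0.07 ± 0.11 for ANXA2, 0.06 ± 0.10 for ANXA5, 0.00 ± 0.10 for ANXA7 and 0.19 ± 0.12 for ANXA11. ANXA2 read 186 and 177 CPM under the weight, against 195 and 187 CPM uncompressed. In Hep3B, the weight gave -0.12 ± 0.11 for ANXA2, -0.09 ± 0.10 for ANXA5 and -0.04 ± 0.10 for ANXA7. ANXA11 read 83.5 and 75.7 CPM under the weight in Hep3B, below both uncompressed libraries (-0.40 ± 0.12). It was not called there, but was by DESeq2 and with the Hep3B libraries fitted alone. ANXA11 fell by 0.51 ± 0.12 in 3% PEG, with 71.8 and 75.2 CPM in 3% PEG against 104 and 106 CPM uncompressed, and that call was lost in each of the 4 fits that left out a library. ANXA5 and ANXA7 had values of -0.30 ± 0.10 and 0.30 ± 0.10 in 3% PEG, and neither was called. DESeq2 and the fit of the Hep3B libraries alone called both, the replicate block also called ANXA5, and total counts and the stricter filter also called ANXA7.

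ANXA4, an annexin of epithelial cells, fell in Hep3B given 3% PEG and, by less, in HepG2 under the weight. In Hep3B it read 123 and 119 CPM in 3% PEG, against 425 and 424 CPM uncompressed, a fall by 1.81 ± 0.11 on the log2 scale. The weight gave 352 and 298 CPM in Hep3B, below both uncompressed libraries, at -0.39 ± 0.11 without a call. In HepG2 it read 177 and 165 CPM under the weight, against 232 and 214 CPM uncompressed. This change of -0.39 ± 0.11 was called, and the call was lost with RLE size factors, without the low-count filter and in each of the 4 fits that left out a library. In 4% PEG it read 156 and 142 CPM, against 125 and 126 CPM in isotonic medium (0.25 ± 0.11, not called).

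ANXA6, the annexin with a duplicated core that binds actin and late endosomes, differed far more between the lines than between treatments. It read 1.25 to 3.98 CPM in the 6 Hep3B libraries and 103 to 165 CPM in the 8 HepG2 libraries. On dishes the spread followed the replicate number: replicate 1 had 107 CPM in 4% PEG and 103 CPM in isotonic medium, and replicate 2 had 160 CPM in 4% PEG and 161 CPM in isotonic medium. The log2 fold change there was 0.02 ± 0.23. It was not called in the other 3 comparisons either, with -0.48 ± 0.23 under the weight in HepG2, 0.79 ± 0.29 under the weight in Hep3B and -0.59 ± 0.32 in 3% PEG. Under the weight in HepG2 it read 111 and 117 CPM, against 165 and 154 CPM uncompressed, with no overlap. It was called there with the HepG2 transwell libraries fitted alone and without the low-count filter. Under the weight in Hep3B it read 3.54 and 3.98 CPM, against 1.82 and 2.53 CPM uncompressed, with no overlap. That rise was called with the Hep3B libraries fitted alone and without the low-count filter.

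ANXA13, an annexin of intestinal and kidney epithelium, was scarce and fell in both PEG comparisons. It read 0.0953 and 0 CPM in 4% PEG, against 2.19 and 1.60 CPM in isotonic medium. That is 3 counts against 96, a ratio of 0.0254 (exact 95% interval 0.00516 to 0.0766). In Hep3B it read 0.161 and 0.212 CPM in 3% PEG, against 2.66 and 2.56 CPM uncompressed, a fall by 3.76 ± 0.47. Both PEG groups were thus near 0 while neither weight group was. Under the weight it rose in HepG2, with 4.36 and 2.76 CPM against 1.20 and 0.869 CPM uncompressed (1.78 ± 0.37), a call that was lost in 3 of the 4 fits that left out a library. In Hep3B the weight gave 2.08 and 2.31 CPM, below the uncompressed values (-0.25 ± 0.34, not called).

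Per kilobase of exon, ANXA5 led in all 7 groups and held 37.3% to 57% of the summed level of the 10 genes. The length used merges all annotated exons of a gene: 3034 bases for ANXA5, 8824 for ANXA2 and 11048 for ANXA4. It can exceed the transcripts present, so the order and the shares depend on it. In CPM, ANXA5 led in every HepG2 group, but ANXA4 or ANXA2 led in every Hep3B group. Uncompressed Hep3B had 425 CPM of ANXA4, 398 CPM of ANXA2 and 251 CPM of ANXA5. The sum was 373 and 367 CPM per kilobase in 4% PEG, against 212 and 205 CPM per kilobase in isotonic medium. On transwells the libraries spanned 175 to 228 CPM per kilobase, so 4% PEG was the group that stood apart. HepG2 read 222 and 219 CPM per kilobase under the weight, against 228 and 216 CPM per kilobase uncompressed. Hep3B in 3% PEG had the lowest sums, 182 and 175 CPM per kilobase, against 221 and 222 CPM per kilobase uncompressed. MYOF per kilobase was 3.89 ± 1.03 in 4% PEG (SD, n = 2), or 1.05% of the sum, against 0.0965 ± 0.0111 and 0.0463% in isotonic medium. ANXA4 held 6.11% of the Hep3B sum in 3% PEG, against 17.3% uncompressed.

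**Figure D3:**
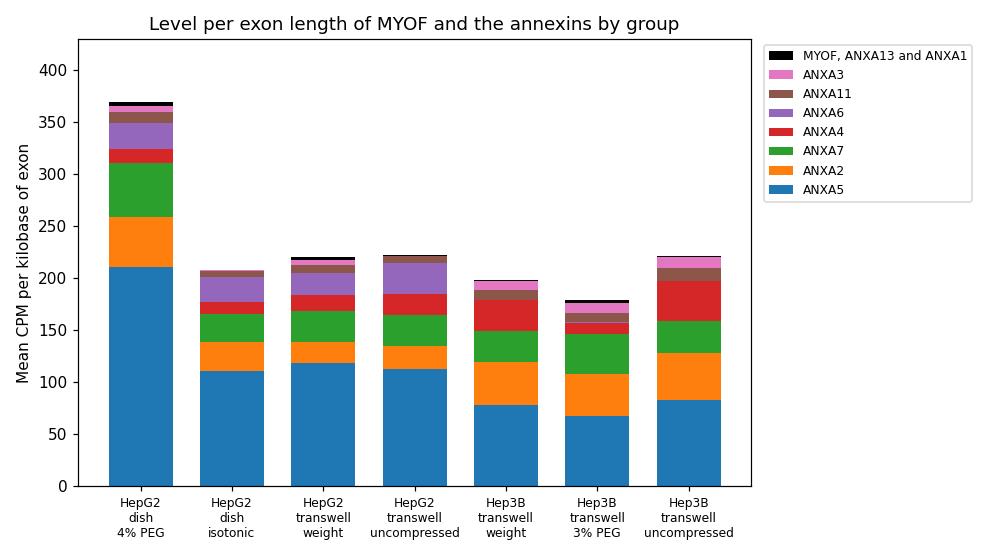
Stacked mean level of the 10 genes in CPM per kilobase of exon (y axis, linear from 0) in the 7 groups, each mean over 2 libraries. The column for HepG2 in 4% PEG is the tallest and ANXA5 is the largest segment of every column, at 57% of the 4% PEG column and 37.3% of the uncompressed Hep3B column. Exon length merges all annotated exons of a gene, and the segment sizes depend on it.

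Weight and 3% PEG were compared directly in Hep3B, where both share the culture surface. With weight set against 3% PEG, 3 of 10 genes were higher (11.8% of all genes) and 3 lower (11.4% of all genes). Total-count scaling gave the same split for the members, and 1928 higher of 4766 over all genes, against 2261 higher and 2183 lower with TMM. Higher under the weight were ANXA4 (1.43 ± 0.11), ANXA6 (1.38 ± 0.31) and ANXA13 (3.51 ± 0.48). Lower under the weight were MYOF (-1.04 ± 0.23), ANXA1 (-3.00 ± 0.53) and ANXA7 (-0.34 ± 0.10). The ANXA7 call was lost in each of the 4 fits that left out a library, and the MYOF and ANXA6 calls in 2 fits each.

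The lines differed in this family without compression. With uncompressed Hep3B set against uncompressed HepG2, 6 of 10 genes were higher (27.6% of all genes) and 2 lower (27.1% of all genes). ANXA3 stood 4.13 ± 0.23 higher on the log2 scale in Hep3B, MYOF 1.57 ± 0.28, ANXA13 1.33 ± 0.37, ANXA2 1.06 ± 0.11, ANXA4 0.93 ± 0.11 and ANXA11 0.86 ± 0.12. ANXA6 differed the most, at -6.20 ± 0.30, and ANXA5 stood at -0.45 ± 0.10. The ANXA13 call was lost without uncompressed HepG2 replicate 2. The ANXA5 call was lost when libraries were scaled by their total counts alone, which moved the median of all genes to 0.35 and the split of the members to 7 higher and 1 lower. All genes then split into 7178 higher of 10966 called, against 5310 higher and 5204 lower with TMM.

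The weight effect itself was set against the line by an interaction term, Hep3B minus HepG2. Of the 10 genes, 0 were called higher (0.822% of all genes) and 2 lower (1.07% of all genes), MYOF and ANXA3. At an unadjusted p of 0.05 in edgeR, 1 was higher and 5 lower, a threshold without a share of all genes beside it. DESeq2 called 1 higher (ANXA6) and 4 lower (MYOF, ANXA3, ANXA11 and ANXA13), and 5.61% of all genes in either direction. The weight effect on MYOF was smaller in Hep3B by 2.49 ± 0.36 on the log2 scale, and that call was lost without uncompressed HepG2 replicate 2. For ANXA3 the difference was -3.14 ± 0.30. ANXA1, with 13 counts under the weight against 7 uncompressed in Hep3B and 122 under the weight against 1 uncompressed in HepG2, was not called in this contrast.

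Across the 14 libraries, the genes most like MYOF in log2 CPM among 10779 named genes were ZNF827 (Pearson r = 0.97), MICAL2 (0.94), AREG (0.92), RASSF5 (0.92) and TTLL3 (0.91). For ANXA1 they were ZNF585A (0.90), CYP1A1 (0.88), TTC17 (0.88), ITGAV (0.87) and NRP2 (0.82). For ANXA2 they were NRDC (0.97), KIF13A (0.96), CA12 (0.96), STK3 (0.95) and SLC17A5 (0.95). Within the family, MYOF ran closest to ANXA1 (0.78) and ANXA3 (0.76). The highest value among the members was 0.84, between ANXA3 and ANXA11, and the lowest was -0.90, between ANXA7 and ANXA13. These values describe 14 libraries that share lines, treatments and depth, and carry no test.

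Genes that work beside the annexins in repair were taken from 6 lists of 52 genes, of which 47 were tested. In 4% PEG, 30 rose and 2 fell, with a median log2 fold change of 0.91, also with TRIM72 at its lower bound, against 0.01 over all genes (23.9% of all genes higher and 23% lower). These genes, like the members, were listed with results known, so their p-values are not independent support. The 2 that fell, CHMP3 and SYT7, were the exceptions in the ESCRT list (6 of 14 higher, 1 lower) and in the lysosome and vesicle fusion list (8 of 9 higher, 1 lower). Under the weight in HepG2, 10 rose and 1, SNAP23, fell, with a median of 0.17 against 0.00 over all genes (5.4% higher and 4.18% lower). In Hep3B, 2 rose under the weight, S100A11 and SYT7, with a median of -0.06 against -0.01 (0.879% of all genes higher). In 3% PEG, 7 rose and 9 fell, with a median of -0.14 against -0.01 (11% of all genes higher and 11.5% lower), and total-count scaling gave 10 higher and 7 lower. CHMP3 and SNAP23 were named after their values were seen, as were the genes of the next paragraph.

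Of all genes tested, 23.9% were called higher in 4% PEG, 5.4% under the weight in HepG2, 0.879% under the weight in Hep3B and 11% in 3% PEG, where 11.5% were called lower. Of the 10 annexin partners, 7 rose in 4% PEG, 3 under the weight in HepG2 (S100A11, S100A6 and AHNAK2) and 1 under the weight in Hep3B, while 3% PEG gave 3 higher (S100A10, S100A11 and ANO6) and 1 lower (BIN1). TRIM72, a repair protein best known from muscle, had 85 counts in 4% PEG against 0 in isotonic medium, at least 23.1-fold higher. All 3 calpain genes rose in 4% PEG, and under the weight in HepG2 CAPN2 was the 1 that rose. Of the 14 ESCRT and ALIX genes, 6 rose in 4% PEG, among them PDCD6IP, which encodes ALIX (0.82), and the ESCRT-III genes CHMP4B (1.05) and CHMP4C (1.94). The weight moved 1 of these 14 in HepG2, CHMP1B (0.52), while 3% PEG gave 2 higher (TSG101 and CHMP4C) and 4 lower (CHMP1B, CHMP2A, CHMP3 and CHMP6). Of the 7 tested genes of caveolae and endocytic repair, 5 rose in 4% PEG and 3 under the weight in HepG2 (CAV1, CAV2 and EHD2), and 1, CAV2, fell in 3% PEG.

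Among the S100 partners, S100A11, which binds ANXA1 and ANXA2, rose in all 4 comparisons. It averaged 243 ± 28.3 CPM in 4% PEG and 4.60 ± 0.602 CPM in isotonic medium (SD, n = 2 each). The log2 fold change of S100A11 was 5.73 ± 0.16 in 4% PEG, 2.47 ± 0.15 under the weight in HepG2, 1.48 ± 0.15 under the weight in Hep3B and 2.73 ± 0.15 in 3% PEG. The edgeR adjusted p-values of S100A11 were 1.59e-09, 5.75e-06, 0.000522 and 6.29e-07 in that order. S100A10, the ANXA2 partner, rose by 1.62 ± 0.12 in 4% PEG (edgeR adjusted p = 9.28e-07) and by 0.77 ± 0.13 in 3% PEG (edgeR adjusted p = 0.00118). Under the weight S100A10 gave 0.31 ± 0.12 in HepG2 and 0.52 ± 0.13 in Hep3B, with edgeR adjusted p-values of 0.148 and 0.0943. S100A6, which binds several annexins, averaged 84.9 ± 22.2 CPM in 4% PEG and 12.4 ± 1.41 CPM in isotonic medium, and 40.2 ± 5.86 CPM under the weight and 10.98 ± 0.251 CPM uncompressed in HepG2 (SD, n = 2 each). In Hep3B, S100A6 was not called, at 0.26 ± 0.20 under the weight and -0.25 ± 0.20 in 3% PEG.

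**Figure D4:**
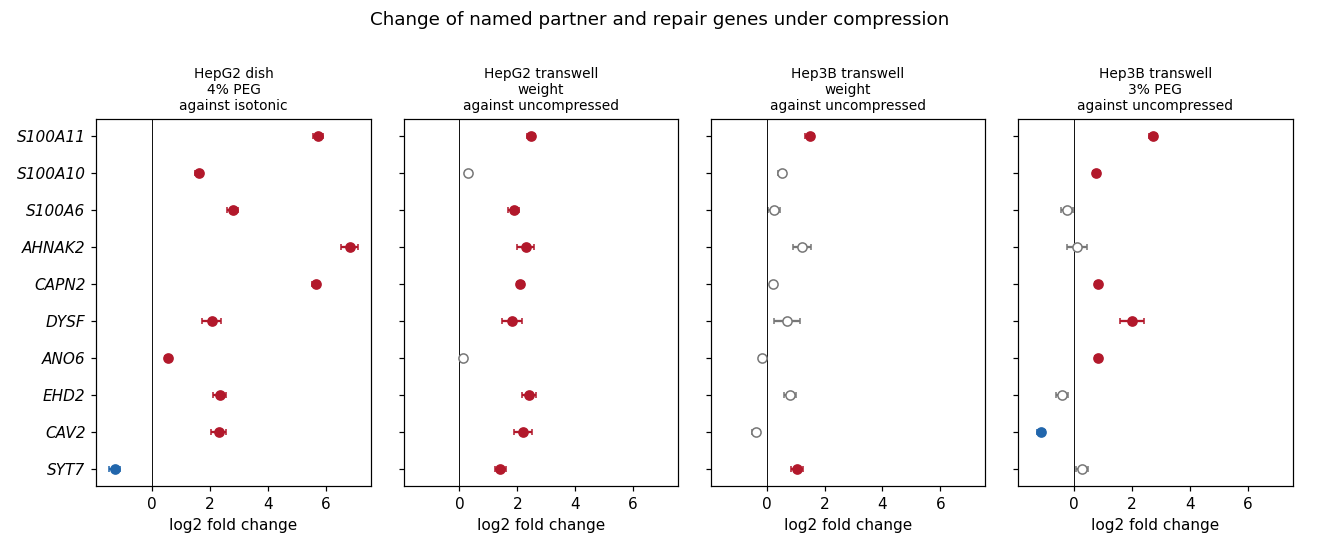
Log2 fold change (x axis, point) with its standard error (bar) of 10 partner and repair genes in the 4 comparisons; filled red points were called higher, filled blue points called lower and open points not called. S100A11 is called higher in every panel (5.73, 2.47, 1.48 and 2.73), while AHNAK2 and EHD2 are called in both HepG2 panels and in neither Hep3B panel; for the weight, the difference between lines was called for EHD2 (edgeR adjusted p = 0.0296) and not for AHNAK2 (0.325).

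AHNAK2, a giant scaffold related to the ANXA2 partner AHNAK, averaged 61.7 ± 6.49 CPM in 4% PEG and 0.529 ± 0.151 CPM in isotonic medium. It averaged 3.47 ± 1.10 CPM under the weight and 0.704 ± 0.175 CPM uncompressed in HepG2 (SD, n = 2 each). The AHNAK2 log2 fold changes were 6.82 ± 0.30 in 4% PEG (edgeR adjusted p = 1.75e-08) and 2.28 ± 0.29 under the weight (edgeR adjusted p = 0.000694). In Hep3B, AHNAK2 was not called, at 1.21 ± 0.30 under the weight and 0.10 ± 0.33 in 3% PEG. CAPN2, the large subunit of the protease m-calpain, averaged 572 ± 21.4 CPM in 4% PEG and 11.4 ± 0.849 CPM in isotonic medium, and 53.9 ± 5.37 CPM under the weight and 12.6 ± 0.0286 CPM uncompressed in HepG2. In Hep3B, CAPN2 averaged 140 ± 1.16 CPM in 3% PEG and 79.0 ± 2.49 CPM uncompressed (0.83 ± 0.11, edgeR adjusted p = 0.00022), and the weight gave 0.22 ± 0.11 without a call.

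DYSF, the ferlin whose loss causes a muscular dystrophy, averaged 23.4 ± 10.9 CPM in 4% PEG and 5.66 ± 2.41 CPM in isotonic medium, and 12.4 ± 0.538 CPM under the weight and 3.54 ± 0.0845 CPM uncompressed in HepG2. DYSF rose by 2.06 ± 0.34 in 4% PEG (edgeR adjusted p = 0.000427), by 1.80 ± 0.35 under the weight in HepG2 (edgeR adjusted p = 0.00795) and by 1.99 ± 0.42 in 3% PEG (edgeR adjusted p = 0.00543). Under the weight in Hep3B it gave 0.70 ± 0.45 and was not called (edgeR adjusted p = 0.83). The weight call in HepG2 was lost in 3 of 4 fits that left out a library, and the 3% PEG call without uncompressed replicate 1. ANO6, a phospholipid scramblase, rose by 0.55 ± 0.10 in 4% PEG (edgeR adjusted p = 0.00073), not with the dish libraries fitted alone (adjusted p = 0.128), and by 0.82 ± 0.10 in 3% PEG (edgeR adjusted p = 0.00016).

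Of the genes of caveolae and endocytic repair, EHD2, an ATPase at caveolar necks, rose by 2.33 ± 0.23 in 4% PEG (edgeR adjusted p = 8.11e-06) and by 2.40 ± 0.24 under the weight in HepG2 (edgeR adjusted p = 0.000152). In Hep3B, EHD2 was not called, at 0.81 ± 0.21 under the weight and -0.43 ± 0.21 in 3% PEG. CAV2, a caveolin, averaged 1.11 ± 0.0850 CPM in 4% PEG and 0.223 ± 0.0160 CPM in isotonic medium, a rise of 2.30 ± 0.26 (edgeR adjusted p = 2.4e-05). In Hep3B, where CAV2 is far more abundant, it averaged 19.9 ± 0.708 CPM in 3% PEG and 43.9 ± 3.08 CPM uncompressed, a fall by 1.14 ± 0.15 (edgeR adjusted p = 0.000217). SYT7, the calcium sensor of lysosome exocytosis, averaged 10.0 ± 3.30 CPM in 4% PEG and 24.7 ± 3.50 CPM in isotonic medium (-1.30 ± 0.20, edgeR adjusted p = 0.000266). Under the weight SYT7 averaged 39.4 ± 0.939 CPM in HepG2 against 14.8 ± 0.210 CPM uncompressed (1.42 ± 0.20, edgeR adjusted p = 0.00127), and 21.2 ± 0.405 CPM in Hep3B against 10.3 ± 0.488 CPM uncompressed (1.04 ± 0.20, edgeR adjusted p = 0.0339). The Hep3B call of SYT7 was lost in each of the 4 fits that left out a library, with edgeR adjusted p-values of 0.193 to 0.413.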

How the data were processed

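Total RNA had been extracted with an RNeasy kit and read in pairs on a HiSeq or a NovaSeq, per the labels' protocols, which do not assign instruments to libraries. STAR, DESeq2 and the GRCh38 (hg38) build are named, without versions or roles, per the submitters' processing notes. Which tool counted reads, with which annotation and whether by strand, is not stated in these sources. The authors' deposited file holds raw counts per gene, not normalised, in 14 columns, 1 per library. All 56479 gene IDs were found in the GENCODE 29 annotation, which gave coordinates and exon lengths. The Hep3B control columns were taken as the uncompressed Hep3B libraries, the only samples left without columns of their own name. No 2 replicates agreed within sampling noise. The labels speak of biological replicates without describing separate cultures. The p-values rest on the spread between these samples, shared over all 7 groups and not that of the compared groups alone. With the dish libraries fitted alone, 22.0% of all genes were called in 4% PEG, against 23.9% higher and 23% lower in the shared fit. With the HepG2 transwell libraries fitted alone, 44.5% were called under the weight, against 5.4% higher and 4.18% lower.

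Counts were analysed in edgeR 4.0.16 (R 4.3.3): filterByExpr with a minimum count of 10 (19232 genes), TMM scaling, and glmQLFit with robust estimation over all 14 libraries, with a mean for each of the 7 groups, which leaves 7 residual degrees of freedom. The Benjamini-Hochberg adjustment ran over all genes tested, with a threshold of 0.05. Where a group held 1 to 3 counts, a ratio of scaled counts has an exact 95% interval, and a group at 0 is bounded at 3 counts over the group. These cover counting error only. The code was tested on simulated data.

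The members, the 6 repair lists, the comparisons and the motifs were chosen with earlier results of these data known. Named are all 10 members and, of the repair lists, up to 4 genes per comparison with the smallest p past the threshold, plus S100A10, S100A11 and DYSF. CHMP3, SNAP23 and the genes of the paragraph on single repair lists fall outside this rule and were named after their values were seen. The 5 genes most like MYOF, ANXA1 and ANXA2 needed a mean of at least 5 CPM. Alternatives were RLE size factors, total counts, no filter, a filter of 5 CPM in 2 libraries, the compared groups fitted alone, DESeq2 1.42.0, a minimum log2 fold change of 1, a replicate term and leaving out each library. For the other repair genes these were added after seeing the data, as was summing ANXA2 with its pseudogenes.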

Additional observations from a re-analysis of the deposited data

Results flagged for a closer look

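The response to the weight differed between the lines for 2 members and 5 repair genes named by rule, by an interaction term in the edgeR fit of all 14 libraries. The difference, Hep3B minus HepG2 on the log2 scale, was -2.49 for MYOF and -3.14 for ANXA3, and -1.88 for CAPN2, -2.57 for CAV2, -1.59 for EHD2, -0.99 for S100A11 and -1.62 for S100A6. All 7 were called over all genes tested, but both sets were chosen with results of these data known, so the values are a description and not independent support. CAV1, which the naming rule left out, was called too, at -3.00 (edgeR adjusted p = 0.0423), with 5 counts in uncompressed HepG2. Of the 47 tested repair genes, 6 were called lower in this contrast (1.07% of all genes) and 0 higher (0.822% of all genes). In each case the weight effect was larger in HepG2. Groups of 2 libraries are too small for a search for outlying libraries.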

How the results depend on the processing

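Of the members' log2 fold changes recomputed under the alternatives in the 4 compression comparisons, 384 kept their direction and their side of the threshold, 20 became called, 19 were no longer called and 12 changed sign. ANXA1 in 4% PEG could not be recomputed with the dish libraries fitted alone, nor ANXA1 and ANXA13 with the stricter filter. Their calls lost in that way are not among the 19. The minimum log2 fold change of 1 was applied to counts only. No value that changed sign was called. They were ANXA6 in 4% PEG (-0.022 without a low-count filter, and -0.3082 to 0.3746 with a library left out, negative without isotonic replicate 1 or 4% PEG replicate 2), ANXA7 under the weight in HepG2 (0.0361 with RLE size factors, 0.0386 with the HepG2 transwell libraries fitted alone, 0.0182 with total counts, 0.0454 with the stricter filter, 0.0324 with DESeq2, and -0.0321 to 0.0242 with a library left out), ANXA7 under the weight in Hep3B (-0.137 to 0.03 with a library left out) and ANXA3 in 3% PEG (0.0125 with total counts, and -0.1654 to 0.0065 with a library left out). Of the named repair genes, AHNAK2 in 3% PEG changed sign (-0.0623 to 0.2235 with a library left out).

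Counts of members called moved by over 1.5 times in some settings. With the compared groups fitted alone, 5 members were called under the weight in Hep3B, where 16.8% of all genes were then called, 8 in 3% PEG (56.8% of all genes) and 6 in the interaction (22.4% of all genes). DESeq2 called 3 under the weight in Hep3B (2.78% of all genes) and 5 in the interaction (5.61% of all genes). Omitting the low-count filter gave 2 (1.19% of all genes) and 5 (1.76% of all genes). A minimum log2 fold change of 1 left 4 in 4% PEG (30.3% of all genes) and 5 between the lines (37.4% of all genes). The stricter filter, which removes ANXA1 and ANXA13, left 3 under the weight in HepG2 (13.9% of all genes). Leaving out a library gave 7 to 8 members in 4% PEG, 3 to 4 under the weight in HepG2, 0 to 1 under the weight in Hep3B, 4 in 3% PEG, 7 to 8 between the lines and 1 to 2 in the interaction.

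Of the other repair genes, the compared groups fitted alone gave 15 calls in 4% PEG (22.0% of all genes) and 34 in 3% PEG (56.8% of all genes). Under the weight they gave 26 in HepG2 (44.5% of all genes) and 9 in Hep3B (16.8% of all genes). A minimum log2 fold change of 1 left 19 in 4% PEG (30.3% of all genes) and 6 in 3% PEG (11.3% of all genes). DESeq2 called 5 under the weight in Hep3B (2.78% of all genes). Counts from fits that left out a library are not given here either.

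With the replicate block, 8, 5, 1 and 6 members were called in the 4 comparisons, in the order of the report, 6 for weight against 3% PEG, 8 between the lines and 3 in the interaction. The shares of all genes called were 49.0%, 11.2%, 1.22%, 24.6%, 25.2%, 56.4% and 2.29% in the same order. Same-numbered libraries deviated together on dishes (r = 0.633 across genes) and not on transwells (-0.078 to 0.073), and the labels do not say that a number marks a shared batch, so the numbers were not taken as pairs. Groups of 2 libraries, and counts of 1 to 3 for ANXA1 and ANXA13, limit what these data resolve. The causes of these shifts were not tested, and some settings also had fewer samples or genes in the fit.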
